A study of Mus musculus with 157 samples.

Results

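The transition of thymocytes from the fourth double negative stage (DN4) to the double positive stage (DP) was examined in cells of the control genotype, RERT2-Cdc20(+/D). The libraries were chosen by their labels alone, as the sorted DP and DN4 cells of non-tumoral thymus of this genotype. This gave 7 DP and 8 DN4 libraries among the 157 mouse libraries of the study. All of them are in the same deposited count table, which holds 81 of the 157. Cdc20 switches on the anaphase-promoting complex at the end of metaphase. The study set mice with one Cdc20 allele labelled D and the other labelled + against mice whose other allele was AAA, a form that the checkpoint protein Mad2 cannot bind. The D allele and the RERT2 driver line were thus shared by all groups described here, and +/D cells were not wild type at Cdc20. The age of the mice and any inducing treatment were not given in the labels. D/AAA libraries of non-tumoral thymus at the same stages (11 DP and 6 DN4), and earlier +/D stages (6 DN1, 8 DN2 and 8 DN3), were used beside the main comparison.

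Thymocytes at the DN3 stage rearrange the T cell receptor beta chain gene, and a beta chain that pairs with the pre-TCR alpha chain lets the cell pass on. Cells that pass divide rapidly as they lose CD25, go through DN4 and turn on CD4 and CD8. At the DP stage most cells leave the cycle, bring back the RAG recombinase, rearrange the alpha chain gene and survive or die according to the receptor they make.

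Each library held RNA of at least 5000 cells sorted by stage. The labels name the stages but not the markers of the sort. The deposited tables held RSEM expected counts per gene, and levels are given below as CPM (counts scaled to a common library total) on totals scaled by the trimmed mean of M values. Total counts ran from 5200279 to 10219745 in DP libraries (median 6972708) and from 6142080 to 11047551 in DN4 libraries (median 9215492). Fold changes are log2 of DP over DN4 with their SE, so that a positive value is higher in DP. The first principal component of log2 CPM held 48.9% of the variance and separated the stages. The second held 7.45% and set apart DP replicate 1 and DN4 replicates 1 and 2, and the marker genes described further on set apart DN4 replicates 1 and 7. Results that rest on these 4 libraries are given with and without them. Replicate numbers follow the order of the samples within a stage and are not in the labels.

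Of 12272 genes tested, 3523 (28.7%) were higher in DP and 3225 (26.3%) lower at an adjusted p under 0.05 (edgeR quasi-likelihood test, Benjamini-Hochberg). A test against a 2-fold change called 987 genes higher (8.04%) and 1091 lower (8.89%). The libraries of the stages did not overlap at all for 1509 genes with DP higher (12.3%) and 1646 genes with DP lower (13.4%). The median fold change of all genes tested was 0.06. Counts of list members below are to be read against these shares. The lists were chosen with earlier results of these data known, so the counts are no independent check of a stage. The shares also differed with exon length. Of the 3062 genes with the longest exon length 1231 were higher and 479 lower, and of the 3063 with the shortest 588 and 1109. Some lists hold some of the same genes.

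The genes of the coreceptors CD4 and CD8, which define the DP stage, were higher in DP. Cd4 (ENSMUSG00000023274, chromosome 6 at 124864692 to 124888221 of GRCm38) encodes the coreceptor for MHC class II and had 1653 to 2188 CPM in DP libraries (median 1892), against 9.91 to 49.0 CPM in DN4 libraries (median 23.2). It was called higher with a fold change of 6.30 ± 0.29 (adjusted p = 2.7e-12). Cd8a and Cd8b1 encode the chains of the coreceptor for MHC class I. Cd8a had 1622 to 2925 CPM in DP libraries (median 2169), against 34.2 to 75.0 CPM in DN4 libraries (median 45.8), a change of 5.55 ± 0.20, and Cd8b1 had 2314 to 4352 CPM in DP libraries (median 3269), against 71.2 to 157 CPM in DN4 libraries (median 127), a change of 4.71 ± 0.18. No DN4 library came near the lowest DP library for any of the 3 genes. The DN4 label was also checked on Il2ra, the CD25 gene of earlier stages, which had 0.786 to 15.4 CPM (median 7.23) in DN4 libraries, and on Cd44, which had 0 to 2.89 CPM (median 0.668). Satb1, a chromatin organiser that acts at the coreceptor loci, had 3018 to 4144 CPM in DP libraries (median 3719), against 658 to 1104 CPM in DN4 libraries (median 889), and its groups did not overlap. Of 14 tested genes of the list of coreceptors and their regulators, 7 of them among the 3062 longest, 10 were higher and 1 was lower. The exception was Runx3, a repressor of Cd4 in CD8 cells, at -1.32 ± 0.42. Zbtb7b, which directs CD4 cells, was below the expression filter.

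**Figure D1:**
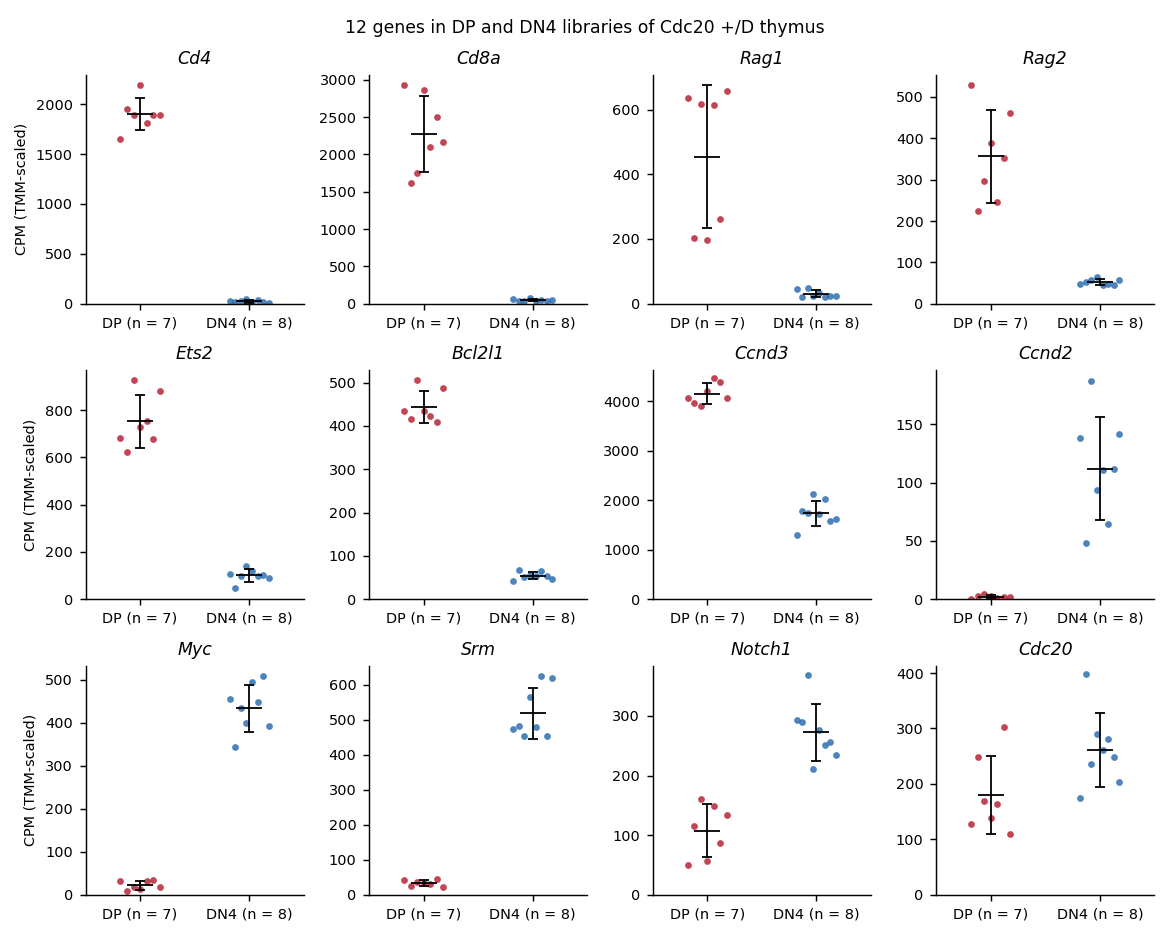
Level of 12 genes in CPM, 1 point per library, with 7 DP libraries left of 8 DN4 libraries, the mean as a bar and the SD as whiskers, on linear axes from 0. The DP and DN4 points do not overlap for Cd4, Cd8a, Rag1, Rag2, Ets2, Bcl2l1, Ccnd3, Ccnd2, Myc, Srm or Notch1, while those of Cdc20 do.

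The genes of V(D)J recombination, which cuts and joins receptor gene segments, were higher in part. Rag1, a subunit of the recombinase that cuts the DNA, had 198 to 657 CPM in DP libraries (median 613), against 19.4 to 47.6 CPM in DN4 libraries (median 25.1), and its change was 3.90 ± 0.32 (adjusted p = 1e-08). The DP libraries fell into 2 clumps for Rag1, at 198 to 260.2 CPM in replicates 2, 4 and 6 and at 613 to 657 CPM in the other 4, and even the lower clump lay above every DN4 library. Rag2, its partner, had 224 to 530.1 CPM in DP libraries (median 353), against 45.3 to 63.9 CPM in DN4 libraries (median 50.1), a change of 2.78 ± 0.17. Dclre1c, the Artemis nuclease that opens the hairpin ends, changed by 2.70 ± 0.22, and Lig4, the ligase of the joining step, by 1.57 ± 0.14. Dntt, which adds untemplated bases to the joins, had 1303 to 2270.1 CPM in DP libraries (median 1840.3), against 693 to 1618 CPM in DN4 libraries (median 944). Its groups overlapped, though the call was higher at 0.86 ± 0.16 (adjusted p = 0.00017). In all, 8 of 16 genes of this list were higher, 3 were lower and 4 were higher beyond 2-fold. The 3 lower ones were the Ku subunit Xrcc5 (-1.49 ± 0.27), the RAG cofactor Hmgb2 (-1.15 ± 0.19) and the damage kinase Atm (-0.75 ± 0.29). Atm lost its call without DP replicate 1, 2, 5 or 6, without DN4 replicate 3 or 7 and without the 4 named libraries (adjusted p from 0.056 to 0.071).

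Transcripts of the receptor segments themselves followed. Counts in the 128 Trav segments, the variable segments of the alpha chain, made up 0.0451% to 0.0763% of a DP library and 0.00619% to 0.0116% of a DN4 library. The means were 0.0569% ± 0.0111 in DP (SD, n = 7) and 0.00934% ± 0.00193 in DN4 (SD, n = 8), and an exact 2-sided permutation test over the libraries gave p = 0.0003108, the smallest that 7 against 8 libraries allow. Every DP library held at least 3083 Trav counts and every DN4 library at most 1260. In all 8 DN4 libraries the leading Trav segment was one that the delta chain also uses, a Trav15 segment with a dv6 name, at 6.27% to 15.2% of Trav counts. In the DP libraries 7 different segments led, with 2.63% to 3.52%. Without all segments shared with the delta chain the difference between DP and DN4 was 0.0450 percentage points (p = 0.0003108). These segments include near-identical copies, so that the split of counts among them is uncertain.

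Position along the locus was compared as well, since alpha chain rearrangement is known to begin with Trav segments near the constant gene Trac. The 64 segments nearest to Trac held 63.2% ± 3.04 of Trav counts in DP (SD, n = 7) and 62.7% ± 4.11 in DN4 (SD, n = 8), a difference smaller than the spread between libraries (exact permutation p = 0.82). Segments shared with the delta chain were kept here and held a larger part of Trav counts in DN4. Their removal took the Trav share from 0.00822% to 0.00394% in DN4 replicate 5 and from 0.00810% to 0.00607% in DN4 replicate 7. In DP replicate 5 it went from 0.0566% to 0.0497%. The comparison therefore does not describe alpha chain rearrangement alone, and it was not repeated without them. Beta chain segments (Trbv) took 0.158% to 0.234% of DP counts, against 0.0623% to 0.104% of DN4 counts. The leading Trbv segment held 11.3% ± 1.42 of Trbv counts in DP (n = 7) and 12.99% ± 1.24 in DN4 (n = 8), with an exact permutation p of 0.0289. The p was above 0.05, at up to 0.061, without DP replicate 2, 3 or 7 or without DN4 replicate 4 or 6. Trbv13-2 led in all libraries but DP replicate 2, where Trbv16 led, and it held at most 14.8% of Trbv counts in any library.

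Chains of the receptor complex went both ways, with 7 of 12 higher and 5 lower. Trac, the alpha constant region, had 522 to 1114 CPM in DP libraries (median 723), against 89.5 to 143 CPM in DN4 libraries (median 106), a change of 2.78 ± 0.15. Cd247, the zeta chain that carries most of the signalling motifs, rose by 1.77 ± 0.10. Ptcra, the pre-TCR alpha chain used before an alpha chain exists, had 65.8 to 159.9 CPM in DP libraries (median 105), against 122 to 190.2 CPM in DN4 libraries (median 155), and the groups overlapped at a change of -0.61 ± 0.17 (adjusted p = 0.0039). The gamma chain constant genes and Trdc of the delta chain were lower, with Tcrg-C4 at 0.139 to 3.28 CPM in DP libraries (median 1.49), against 31.5 to 93.3 CPM in DN4 libraries (median 67.7) and Trdc at 26.1 to 62.5 CPM in DP libraries (median 57.1), against 161 to 266 CPM in DN4 libraries (median 209). Neither of these overlapped between stages. In bulk RNA, here and below, fewer cells of a type and less RNA per cell cannot be told apart.

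Of 28 kinases and adaptors that carry the receptor signal, 21 were higher and 2 lower, and 10 were higher beyond 2-fold. The list's median change was 1.15. Of its 28 genes 12 lay among the 3062 longest and 0 among the 3063 shortest, and the part of gene length was not tested. Themis, an adaptor required for positive selection, had 400.1 to 569 CPM in DP libraries (median 443), against 55.4 to 125 CPM in DN4 libraries (median 96.8). Lcp2, the SLP-76 scaffold, had 470.5 to 637 CPM in DP libraries (median 544), against 136 to 207 CPM in DN4 libraries (median 179), a change of 1.61 ± 0.11. Tespa1, an adaptor of calcium signalling in thymocytes, had 196 to 383 CPM in DP libraries (median 310.1), against 53.7 to 92.8 CPM in DN4 libraries (median 63.2), a change of 2.12 ± 0.15. Libraries of the stages were apart for 17 of the 28 genes. The 2 lower members were Csk (-0.90 ± 0.16), a kinase that restrains Lck, and Cblb (-1.07 ± 0.40), a ubiquitin ligase that also restrains the signal. The receptor Cd5 (1.90 ± 0.18) and the phosphatase Ptpn22 (1.16 ± 0.14), which restrain it too, were higher without overlap, and the phosphatase Ptpn6 (-0.18 ± 0.14) was not called. With the 4 named libraries left out Cblb changed by -0.49 (adjusted p = 0.32). It also lost its call when 1 of DP replicates 1, 2 and 5 or of DN4 replicates 1, 3 and 7 was left out (adjusted p from 0.053 to 0.081).

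Genes known from DP cells were nearly all higher, with 18 of 20 higher, 2 lower and a median of 1.72. Among the 3062 longest genes were 9 of the 20. Bcl2l1, which encodes the survival protein Bcl-xL of DP cells, had 410.0 to 506 CPM in DP libraries (median 434), against 43.1 to 68.2 CPM in DN4 libraries (median 53.2), with a change of 3.03 ± 0.12 (adjusted p = 1.7e-13). Ets2, an ETS family transcription factor, had 622 to 926 CPM in DP libraries (median 729), against 48.6 to 142 CPM in DN4 libraries (median 101), a change of 2.90 ± 0.17. Rmnd5a, a ubiquitin ligase subunit, was higher by 3.15 ± 0.15. The lowest DP library was above the highest DN4 library for all 3 of these genes. The 2 lower members were Cd24a (-0.50 ± 0.14) and Tspan5 (-0.66 ± 0.27), whose groups overlapped. Tspan5 lost its call without DP replicate 1, 2, 4, 5 or 7 or DN4 replicate 3, 4, 5 or 6 (adjusted p from 0.059 to 0.086).

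Transcription factors of the T lineage were mostly higher, 14 of 24 against 4 lower. Among the 3062 longest genes were 13 of the 24. Myb, required for DP survival and for recombination of the alpha locus, had 758 to 1186 CPM in DP libraries (median 953), against 135 to 311 CPM in DN4 libraries (median 208), a change of 2.27 ± 0.15. Sox4, an HMG box factor, was higher at 1.43 ± 0.13. Tcf7, which encodes TCF-1, had 2033 to 3946 CPM in DP libraries (median 3306), against 1896 to 2667 CPM in DN4 libraries (median 2363), with overlap between the groups and a change of 0.52 ± 0.12 (adjusted p = 0.0014). Its relative Lef1 had 194 to 402 CPM in DP libraries (median 283), against 262 to 421 CPM in DN4 libraries (median 309) and was not called (-0.25 ± 0.15, adjusted p = 0.16). It was called lower when DP replicate 1 was left out (-0.35, adjusted p = 0.038) and when the 4 named libraries were left out (-0.44, adjusted p = 0.017). Among E proteins, their Id antagonists and Egr genes, 3 of 9 were higher and 1 lower. Tcf12, which encodes the E protein HEB, had 327 to 523 CPM in DP libraries (median 394), against 181 to 221 CPM in DN4 libraries (median 206) and was called higher (adjusted p = 1.9e-07). Egr1, an early target of receptor signals, rose by 1.14 ± 0.21. Id2 fell by 1.41 on the log2 scale. Id3, an Egr1 target in this pathway, had 301 to 398 CPM in DP libraries (median 332), against 195 to 349 CPM in DN4 libraries (median 273), at 0.30 ± 0.12 (adjusted p = 0.047), and its adjusted p was above 0.05 under 17 of 23 alternatives. Without the 4 named libraries its change was 0.05.

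Notch signalling drives cells up to beta selection and is then lost. Notch1 had 49.2 to 161 CPM in DP libraries (median 116), against 211 to 368 CPM in DN4 libraries (median 266), a change of -1.34 ± 0.22 (adjusted p = 3e-05), with no overlap. Hes1, a direct Notch target, had 0 to 2.58 CPM in DP libraries (median 0.278), against 3.09 to 12.5 CPM in DN4 libraries (median 7.73), and was called lower (adjusted p = 0.00062). The fringe enzymes, which add sugars to Notch receptors, split. Lfng had 0 to 1.46 CPM in DP libraries (median 0.186), against 0.673 to 13.2 CPM in DN4 libraries (median 5.07) and Mfng had 32.9 to 74.3 CPM in DP libraries (median 40.5), against 72.5 to 140.2 CPM in DN4 libraries (median 119), both called lower, whereas Rfng was higher by 1.07 ± 0.14. Over the whole list 3 of 18 genes were higher, 6 were lower and 9 were not called. Its median of -0.12 lay close to that of all genes.

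Cytokine receptor genes went both ways. Il7r, the receptor chain that early thymocytes need for survival, had 0.695 to 3.14 CPM in DP libraries (median 1.75), against 11.2 to 23.5 CPM in DN4 libraries (median 17.8), a change of -3.19 ± 0.34. Il2rb, a chain shared by the receptors for interleukins 2 and 15, was at 0.556 to 7.99 CPM in DP libraries (median 2.05), against 16.5 to 99.3 CPM in DN4 libraries (median 80.04). On the other side Socs1, a brake on JAK kinases that is known to hold back interleukin 7 signals in DP cells, had 162 to 196 CPM in DP libraries (median 181), against 28.1 to 48.6 CPM in DN4 libraries (median 40.6), a change of 2.19 ± 0.13. Il21r was higher by 1.92 ± 0.17. Of 16 tested genes 11 were higher and 4 lower.

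Among abundant genes without overlap, Myc fell furthest after the globin genes Hba-a2 and Hbb-bs. It encodes the factor that drives growth and ribosome production (ENSMUSG00000022346, chromosome 15 at 61985391 to 61990374) and had 9.18 to 33.5 CPM in DP libraries (median 17.7), against 344 to 508 CPM in DN4 libraries (median 441). The change was -4.28 ± 0.25 (adjusted p = 4.1e-11), and the highest DP library stood an order of magnitude under the lowest DN4 library. Mxd4 and Mxd1 encode MAX partners that repress MYC targets. Mxd4 had 292 to 391 CPM in DP libraries (median 312), against 28.4 to 68.9 CPM in DN4 libraries (median 53.3), a change of 2.69 ± 0.18, and Mxd1 rose by 1.97 ± 0.29. Mxi1, another such partner, changed by 0.997 ± 0.18. Max itself, the common partner, was not called (0.28 ± 0.22, adjusted p = 0.30). Of 11 genes of the network 5 were higher and Myc alone was lower.

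Genes that build ribosomes fell almost as a whole. Of 33 nucleolar genes 32 were lower and 25 lower beyond 2-fold, with a median of -1.94. Npm1, a nucleolar chaperone, had 148 to 245 CPM in DP libraries (median 169), against 877 to 1639.6 CPM in DN4 libraries (median 1309), a change of -2.87 ± 0.16. Fbl, the methyltransferase of ribosomal RNA, had 37.8 to 51.8 CPM in DP libraries (median 43.0), against 195 to 299 CPM in DN4 libraries (median 282), a change of -2.62 ± 0.12. Nhp2 and Nop58, core proteins of small nucleolar particles, fell by 3.18 and 2.42 on the log2 scale. Groups were apart for 29 of the 33 genes. The summed level of the list ran from 2280 to 3015 CPM in DP and from 8037 to 10487 CPM in DN4. Wdr12, a processing factor of the large subunit, was the exception at 0.46 ± 0.12.

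Cytosolic ribosomal protein genes followed, with 76 of 77 lower, 66 beyond 2-fold and a median of -1.67. Rplp2 of the ribosomal stalk had 125 to 218 CPM in DP libraries (median 168), against 499 to 878 CPM in DN4 libraries (median 691), a change of -2.07 ± 0.16. Rpl13 changed by -1.76 ± 0.13 and Rpl4 by -1.58 ± 0.12. The list summed to 13077 to 21000 CPM in DP and to 36522 to 70098 CPM in DN4, with no overlap. Reads of these genes are shared with processed pseudogenes, so that single values are uncertain. These genes are also short, with 49 of 77 among the 3063 genes with the shortest exon length. Over all tested genes the median change was -0.33 in these 3063 shortest genes and 0.34 in the 3062 longest, and the part of gene length in the result was not tested. Aminoacyl-tRNA synthetases, which load amino acids onto tRNAs, were lower in 18 of 20 cases, among them Kars (-1.80 ± 0.13), Vars (-2.19 ± 0.20), Yars (-1.43 ± 0.14) and Gars (-1.33 ± 0.13). Their median was -1.07.

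**Figure D2:**
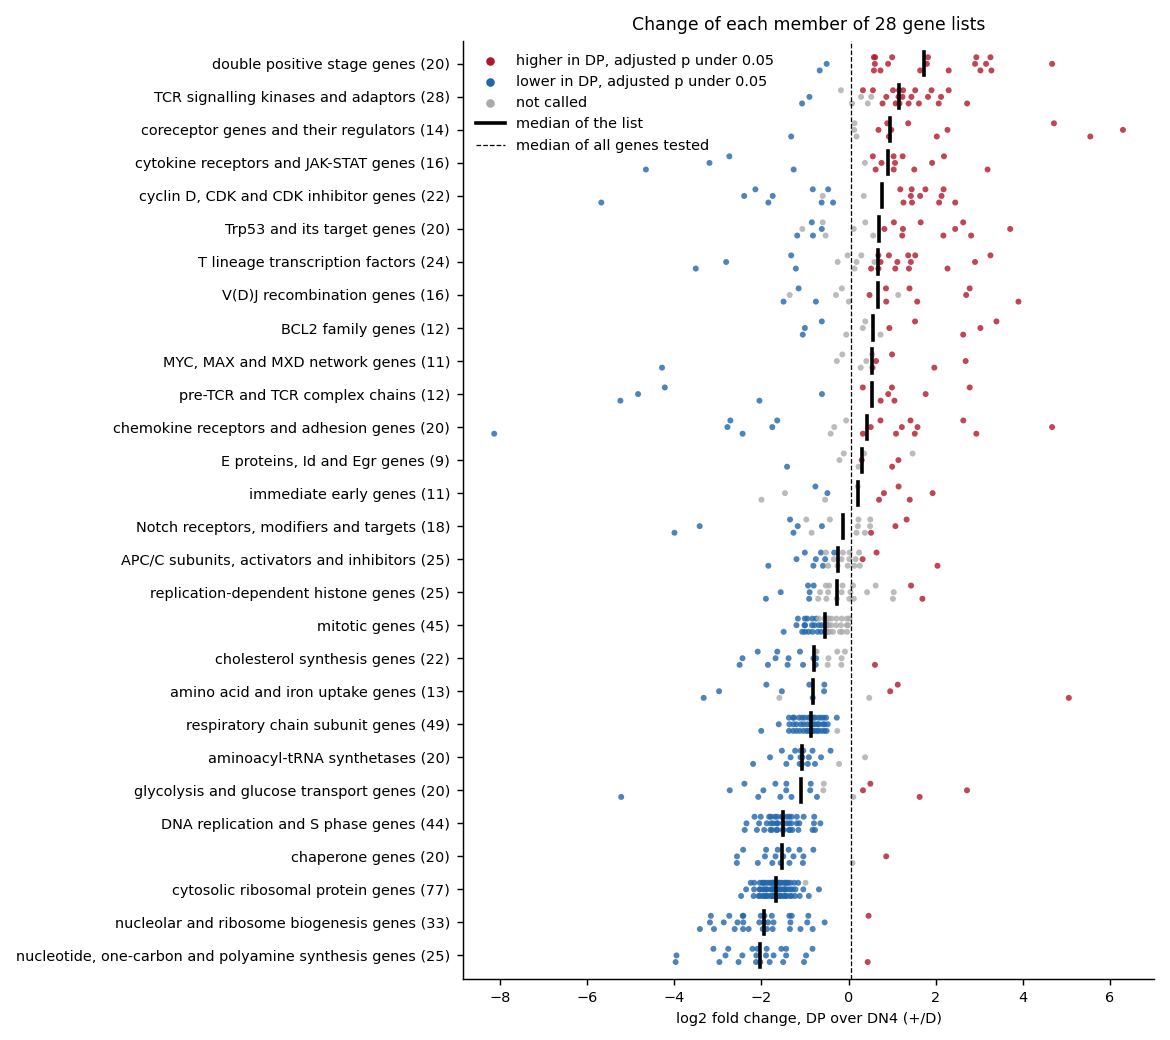
Log2 fold change (DP over DN4) of every tested member of the gene lists, 1 row per list, with a bar at each list's median and a dashed line at the median of all genes tested, 0.06. Points are coloured by call. Nearly all points of the nucleolar, ribosomal protein, S phase and nucleotide synthesis lists lie left of 0, whereas those of the double positive stage and TCR signalling lists lie mostly to the right.

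Synthesis of building blocks went the same way. Of 25 genes for nucleotides, one-carbon units and polyamines 24 were lower, 21 beyond 2-fold, with a median of -2.03. Srm, spermidine synthase, had 21.6 to 44.8 CPM in DP libraries (median 33.5), against 454 to 625.2 CPM in DN4 libraries (median 481), a change of -3.97 ± 0.17. Odc1, the first enzyme of polyamine synthesis, had 35.3 to 59.4 CPM in DP libraries (median 50.9), against 240.0 to 379 CPM in DN4 libraries (median 327), a change of -2.76 ± 0.14. Shmt2, the mitochondrial source of one-carbon units, and Gart of purine synthesis changed by -3.10 ± 0.12 and -2.53 ± 0.11. No DP library reached the lowest DN4 library for any of these 4 genes. The exception was Impdh1, which was higher at 0.44 ± 0.13, while its paralog Impdh2 was lower at -1.90 ± 0.15. Ppa1, the pyrophosphatase that clears the by-product of such syntheses, was among the abundant genes with the largest falls, at 8.14 to 19.99 CPM in DP libraries (median 15.7), against 153 to 244 CPM in DN4 libraries (median 203).

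Promoters of some of these genes are shown because MYC binds the E-box CACGTG and because the cell cycle element TTTGAA is known from mitotic genes. Only list members called lower in DP that hold the motif in the bases printed were picked. Each sequence therefore has a site by choice. The sequences are 120 bases that end at the base before the first start listed by RefSeq on GRCm38.p6. They are read along the gene's strand, with the motif in capitals. The position given for Cdc20 further on is from GENCODE M21 and ends at 118437352, within the bases printed here.
Nop2, chr6:125131763-125131882, plus strand: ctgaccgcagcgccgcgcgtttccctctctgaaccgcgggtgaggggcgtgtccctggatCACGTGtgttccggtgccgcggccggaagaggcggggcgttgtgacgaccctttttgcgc
Nme1, chr11:93968273-93968392, minus strand: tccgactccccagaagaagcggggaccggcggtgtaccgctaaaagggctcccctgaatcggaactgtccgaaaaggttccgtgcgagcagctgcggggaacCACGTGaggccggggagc
Atic, chr1:71557036-71557155, plus strand: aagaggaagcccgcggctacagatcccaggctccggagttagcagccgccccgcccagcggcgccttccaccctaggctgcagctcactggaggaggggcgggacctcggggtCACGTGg
Impdh2, chr9:108560316-108560435, plus strand: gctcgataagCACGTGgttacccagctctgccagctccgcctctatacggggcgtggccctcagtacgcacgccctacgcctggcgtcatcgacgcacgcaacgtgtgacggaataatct
Cdk1, chr10:69352913-69353032, minus strand: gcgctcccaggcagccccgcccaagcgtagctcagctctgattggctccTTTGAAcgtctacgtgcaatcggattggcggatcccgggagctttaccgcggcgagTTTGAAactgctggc
Cdc20, chr4:118437344-118437463, minus strand: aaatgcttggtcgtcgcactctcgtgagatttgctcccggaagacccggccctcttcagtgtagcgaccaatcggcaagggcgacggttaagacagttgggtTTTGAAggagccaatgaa
Motifs were searched on both strands in the 250 bases before the first listed start, and 8754 of the tested genes matched a promoter. CACGTG stood in 8.76% of these, in 6.05% of all 27025 genes with a promoter, in 5 of 22 promoters of the nucleotide and polyamine list (22.7%) and in 2 of 29 of the nucleolar list (6.90%). Nop2, an rRNA methyltransferase, changed by -1.94 ± 0.21, Nme1, a nucleoside diphosphate kinase, by -2.12 ± 0.13, and Atic, of purine synthesis, by -2.12 ± 0.16. Their sites began 60, 18 and 7 bases before the start, and that of Impdh2 110 bases before it. Cdk1, the mitotic kinase, changed by -1.06 ± 0.26. The site nearest to the start began 15 bases before it in Cdk1 and 18 bases before it in Cdc20. TTTGAA stood in 16.3% of all promoters, in 10.5% of those of tested genes, in 11 of 37 of the mitotic list (29.7%) and in 4 of 35 of the S phase list (11.4%). The shorter CCAAT stood in 34.5% of all promoters, in 37.8% of those of tested genes, in 28 of 37 mitotic (75.7%) and in 23 of 35 S phase promoters (65.7%). A match describes the letters and is not evidence of binding.

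Energy metabolism and protein folding were lower with some exceptions. Of 20 glycolysis genes 13 were lower and 4 higher. The subunits of lactate dehydrogenase moved apart. Ldha had 499 to 886 CPM in DP libraries (median 799.9), against 2319 to 3678 CPM in DN4 libraries (median 3200), a change of -2.07 ± 0.14, whereas Ldhb had 1274 to 1826 CPM in DP libraries (median 1414), against 163 to 295 CPM in DN4 libraries (median 251), a change of 2.72 ± 0.15. Both were without overlap. Tpi1 and Pgam1, of the middle and lower pathway, changed by -2.73 ± 0.13 and -2.39 ± 0.14. Respiratory chain genes were lower in 48 of 49 cases, but only 6 passed the test beyond 2-fold, and the median was -0.87. Of these 49 genes 33 lay among the 3063 shortest. Atp5g1, a subunit of the membrane ring of ATP synthase, changed by -2.005 ± 0.13, and Atp5b, a catalytic subunit, by -1.27 ± 0.10. Chaperones were lower in 18 of 20 cases. The mitochondrial chaperones Hspd1 and Hspa9 changed by -2.56 ± 0.14 and -2.42 ± 0.12, Hsp90ab1 by -1.89 ± 0.12 and the chaperonin subunit Tcp1 by -1.68 ± 0.10. Dnajb1, which is heat inducible, was higher at 0.86 ± 0.19.

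Uptake genes were lower in 8 of 13 cases and higher in 3. Slc7a5, of the large neutral amino acid transporter, had 1.305 to 14.7 CPM in DP libraries (median 12.99), against 79.5 to 133 CPM in DN4 libraries (median 107), and Slc7a1, a transporter of basic amino acids, had 3.28 to 10.8 CPM in DP libraries (median 6.41), against 45.8 to 63.2 CPM in DN4 libraries (median 50.7). Both lay without overlap below DN4, as did the folate carrier Slc19a1 (-1.89 ± 0.19). Slc7a11, the cystine carrier, went the other way with 39.7 to 149.5 CPM in DP libraries (median 68.2), against 0.146 to 4.84 CPM in DN4 libraries (median 1.95), a change of 5.05 ± 0.42. Cholesterol synthesis genes were lower in 13 of 22 cases, with Idi1 at -2.44 ± 0.20, Sqle at -2.50 ± 0.25, Fdps at -1.68 ± 0.17 and Hmgcs1 at -1.64 ± 0.16. Dhcr7, of the last step, was the 1 higher member (0.60 ± 0.17).

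DNA replication genes fell as a whole and mitotic genes in part. All 44 tested S phase genes were lower, 31 of them beyond 2-fold, with a median of -1.51, and groups were apart for 41. Mcm5, of the replicative helicase, had 176 to 408 CPM in DP libraries (median 311), against 1033 to 1349 CPM in DN4 libraries (median 1241), a change of -2.05 ± 0.15. Mcm7, of the same ring, changed by -1.37 ± 0.09, Cdt1, which loads it, by -1.76 ± 0.13, and the clamp loader subunit Rfc3 by -1.78 ± 0.13. Of 45 mitotic genes 23 were lower, none were higher and 22 were not called, and only Mybl2 (-1.49 ± 0.19), a transcription factor of cycling cells, was lower beyond 2-fold. The median was -0.54, and Mybl2 was also the only mitotic gene whose groups did not overlap. Mki67, the marker of cycling cells, had 97.3 to 333 CPM in DP libraries (median 198), against 208 to 471 CPM in DN4 libraries (median 329.8), a change of -0.74 ± 0.21 (adjusted p = 0.0058). Ccna2, the cyclin of S and G2 phases, changed by -0.92 ± 0.18, and Cdca8, of the chromosomal passenger complex, by -0.83 ± 0.17. Summed mitotic levels spanned 2927 to 7933 CPM in DP and 4695 to 10032 CPM in DN4, while summed S phase levels were apart at 3818 to 7076 CPM in DP and 14437 to 17434 CPM in DN4. In a single fit of all 37 sorted +/D libraries 14 mitotic genes, not 23, were lower.

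**Figure D3:**
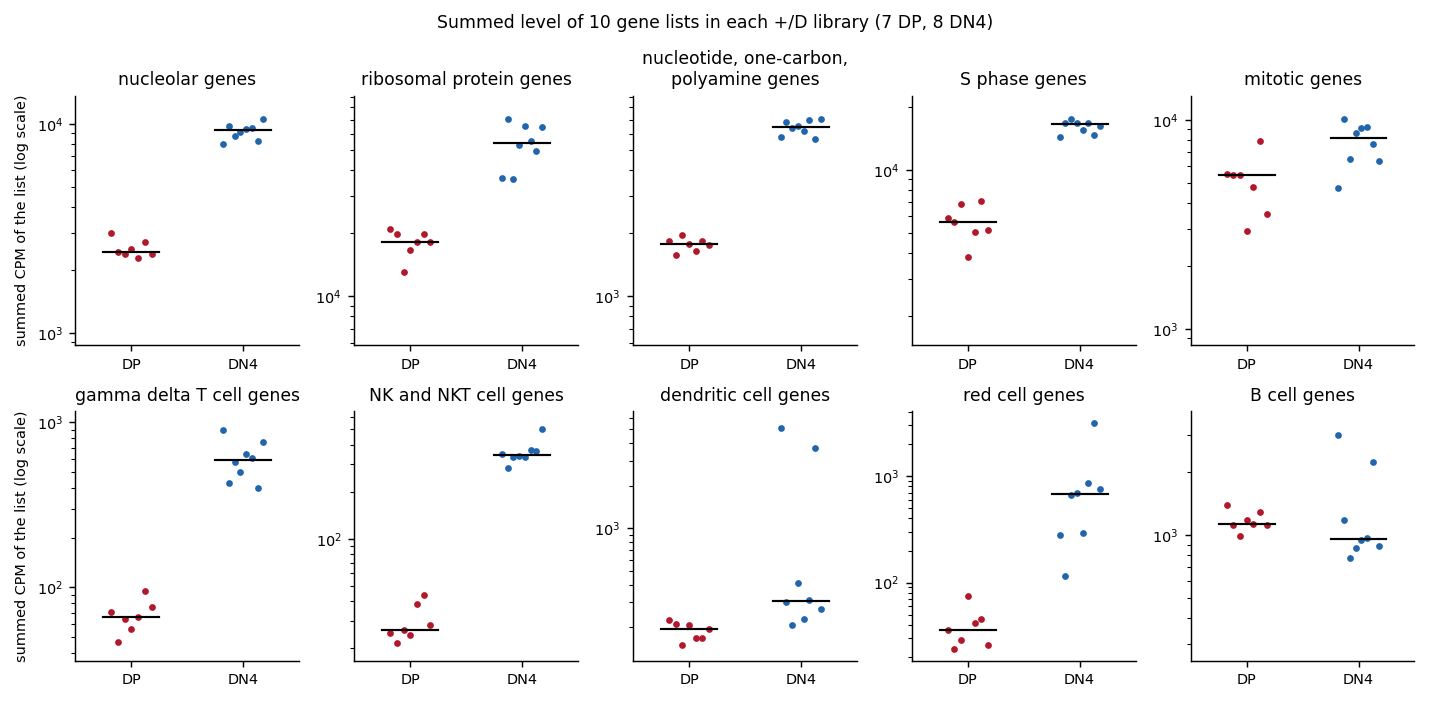
Summed CPM of 10 gene lists, 1 point per library on a log axis, with 7 DP libraries left of 8 DN4 libraries and a line at each median. The S phase, nucleolar and ribosomal protein sums do not overlap between stages, the mitotic sums do, and DN4 replicates 1 and 7 stand above the other DN4 libraries for dendritic cell genes.

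Cdc20, the gene altered in the study (ENSMUSG00000006398, chromosome 4 at 118432901 to 118437352), had 109 to 303 CPM in DP libraries (median 164), against 174 to 399 CPM in DN4 libraries (median 254). The groups overlapped, and the change was -0.54 ± 0.21 (adjusted p = 0.032). Under 11 of 23 alternatives the adjusted p was above 0.05. It was so without DN4 replicate 2 (0.087) or 4 (0.0502), without DP replicate 1, 3, 4, 5 or 7 (0.054 to 0.075) and without the 4 named libraries (0.063). Among 25 subunits, activators and inhibitors of the anaphase-promoting complex 3 were higher and 9 lower. Mad1l1, which recruits Mad2 to kinetochores, had 309 to 534 CPM in DP libraries (median 418), against 72.4 to 128 CPM in DN4 libraries (median 105), a change of 2.04 ± 0.14. Trip13, the ATPase that remodels Mad2, had 6.95 to 32.2 CPM in DP libraries (median 10.3), against 35.6 to 69.8 CPM in DN4 libraries (median 64.2), a change of -1.84 ± 0.32. Both were without overlap. Mad2l1, which encodes Mad2, changed by -1.20 ± 0.22, and the small subunit Anapc15 by -0.81 ± 0.14. Most of the other subunits stayed uncalled, 13 in all.

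The D-type cyclins went opposite ways. Ccnd2, the cyclin of early stages, had 0.397 to 4.23 CPM in DP libraries (median 2.12), against 48.3 to 187 CPM in DN4 libraries (median 111), a change of -5.68 ± 0.39. Ccnd3, the cyclin that thymocytes need after beta selection, had 3909 to 4468 CPM in DP libraries (median 4069), against 1305 to 2123 CPM in DN4 libraries (median 1732), a change of 1.26 ± 0.10. Cdk4, their kinase, had 189.6 to 244 CPM in DP libraries (median 235), against 789.8 to 1222 CPM in DN4 libraries (median 1022), and its relative Cdk6 changed by -2.40 ± 0.13. Btg2, an antiproliferative gene, was higher with 759 to 1443 CPM in DP libraries (median 1051), against 157 to 269 CPM in DN4 libraries (median 185). In all, 11 of 22 were higher and 9 lower, 7 and 4 of them beyond 2-fold. Replication-dependent histone genes mostly were not called (17 of 25). Hist1h1c, a linker histone that is also polyadenylated, was higher at 1.69 ± 0.23, as was Hist1h2ac at 1.43 ± 0.33, while Hist1h2ag (-1.56 ± 0.36) and Hist1h2bj (-0.89 ± 0.29) were lower.

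Trp53, which encodes p53, had 152 to 372 CPM in DP libraries (median 183), against 329 to 420.0 CPM in DN4 libraries (median 379), a change of -0.84 ± 0.15 (adjusted p = 0.00011). One DP library, replicate 1 at 372 CPM, reached into the DN4 range and the other 6 stayed at or under 211 CPM. Of 20 tested members of the list of Trp53 and its targets 10 were higher and 4 lower. Fas, the death receptor, had 103 to 161 CPM in DP libraries (median 145), against 6.73 to 12.7 CPM in DN4 libraries (median 11.7), a change of 3.71 ± 0.16. Bbc3, which encodes the killer protein PUMA, had 47.5 to 66.5 CPM in DP libraries (median 60.6), against 4.96 to 15.8 CPM in DN4 libraries (median 8.93), a change of 2.63 ± 0.23, and Trp53inp1 changed by 2.81 ± 0.22. Several targets in this list, Btg2 and Fas among them, also answer to other signals. Cdkn1a, the p21 gene, was not called (-0.59 ± 0.55, adjusted p = 0.37). Of 12 BCL2 family genes 5 were higher and 3 lower. Mcl1, a survival gene, was higher by 1.52 ± 0.15, Bid was lower at -1.05 ± 0.11, and Bcl2, the survival gene of single positive cells, was lower at -1.004 ± 0.27.

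Homing genes were divided, with 11 of 20 higher and 6 lower. Ccr9, a chemokine receptor of cortical thymocytes, had 1265 to 2221 CPM in DP libraries (median 1728), against 129 to 426 CPM in DN4 libraries (median 211), a change of 2.93 ± 0.20. Plxnd1, a semaphorin receptor of DP cells, had 84.6 to 204 CPM in DP libraries (median 172), against 2.44 to 10.3 CPM in DN4 libraries (median 5.14), a change of 4.67 ± 0.28. Cd27 (1.58 ± 0.13) and the integrin chain Itgb2 (1.42 ± 0.12) were higher too. S1pr1, the receptor for exit from the thymus, was at 0 to 0.470 CPM in DP libraries (median 0), against 6.96 to 87.4 CPM in DN4 libraries (median 23.4). Immediate early genes, which respond to stimulation and to handling, were higher in 5 of 11 cases and lower in 2. Jund (1.40 ± 0.18) and Zfp36 (1.93 ± 0.39) were higher without overlap, and Klf6 (0.81 ± 0.18) and Jun (1.15 ± 0.26) with overlap. Without the 4 named libraries Zfp36 changed by 2.60.

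Ranked by fold change among protein-coding genes with at least 10 CPM in 1 stage and no overlap, the higher end held, besides Cd4 and Cd8a, a set of genes outside the lists. Foxb1, a forkhead factor known from the nervous system, had 10.2 to 24.7 CPM in DP libraries (median 13.9), against 0 to 0.337 CPM in DN4 libraries (median 0). Prr29 had 17.6 to 26.0 CPM in DP libraries (median 21.3), against 0 to 0.437 CPM in DN4 libraries (median 0) and Wdr27 10.5 to 17.7 CPM in DP libraries (median 12.5), against 0 to 0.348 CPM in DN4 libraries (median 0). These 3 genes were at or near 0 in DN4, so no fold change is given for them. Xrra1 had 137 to 186 CPM in DP libraries (median 166), against 0.0892 to 4.83 CPM in DN4 libraries (median 1.54), a change of 6.34 ± 0.47. Cfap74, a gene of the ciliary axoneme, had 96.8 to 148 CPM in DP libraries (median 125), against 0.679 to 4.94 CPM in DN4 libraries (median 2.62), a change of 5.45 ± 0.32. Adam12, a metalloprotease, had 18.1 to 85.3 CPM in DP libraries (median 41.8), against 0 to 1.51 CPM in DN4 libraries (median 0.424), and Slc6a19, an amino acid transporter of gut and kidney, had 31.6 to 182 CPM in DP libraries (median 52.98), against 0 to 3.09 CPM in DN4 libraries (median 1.25). For Slc6a19 the spread among DP libraries was wide, with replicate 1 highest. Spats2l had 20.7 to 54.7 CPM in DP libraries (median 35.2), against 0 to 1.60 CPM in DN4 libraries (median 0.0552). Among abundant genes Spo11, the nuclease that makes DNA breaks in meiosis, had 334 to 721 CPM in DP libraries (median 505), against 8.65 to 24.2 CPM in DN4 libraries (median 12.7), a change of 5.19 ± 0.23. Chrna9, an acetylcholine receptor subunit, had 273 to 460.5 CPM in DP libraries (median 358), against 8.56 to 25.4 CPM in DN4 libraries (median 20.3), a change of 4.27 ± 0.20. Vamp1, a vesicle fusion protein, changed by 4.18 ± 0.27, and Fbxl12, a ubiquitin ligase subunit, by 3.86 ± 0.12 with 575 to 825 CPM in DP libraries (median 709.8), against 36.9 to 54.9 CPM in DN4 libraries (median 49.3).

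The lower end of the same ranking held many genes known from other cells. Hba-a2 had 0.0992 to 5.99 CPM in DP libraries (median 0.375), against 66.9 to 1541 CPM in DN4 libraries (median 317), and Hbb-bs had 0.125 to 4.58 CPM in DP libraries (median 0.559), against 26.9 to 1053 CPM in DN4 libraries (median 261). Hba-a1, at 0 to 1.31 CPM in DP and 15.4 to 353 CPM in DN4, and Hbb-bt completed the globins, whose near-identical copies share reads. Blk, a kinase of B cells and gamma delta T cells, had 0 to 0.353 CPM in DP libraries (median 0.139), against 13.6 to 112 CPM in DN4 libraries (median 23.6), and Fcrl1, a B cell gene, 0 to 0.146 CPM in DP libraries (median 0), against 0.224 to 44.7 CPM in DN4 libraries (median 6.98). Zbtb16, which encodes PLZF of innate-like T cells, had 0 to 0.353 CPM in DP libraries (median 0), against 2.92 to 21.8 CPM in DN4 libraries (median 11.2). Susd2 had 0 to 0.235 CPM in DP libraries (median 0.0992), against 2.13 to 35.03 CPM in DN4 libraries (median 21.4), and Slc22a3, a cation transporter, 0 to 0.250 CPM in DP libraries (median 0.139), against 9.17 to 24.9 CPM in DN4 libraries (median 17.5). Among abundant genes Myc, Srm, Ppa1 and Gzma were joined by Shmt1, the cytosolic partner of Shmt2, with 2.61 to 35.03 CPM in DP libraries (median 21.7), against 239.5 to 385 CPM in DN4 libraries (median 312), and by H2-Ab1 of MHC class II with 11.6 to 43.1 CPM in DP libraries (median 16.9), against 54.8 to 1231 CPM in DN4 libraries (median 98.6).

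Marker lists of other cells were summed for this reason. Gamma delta genes summed to 46.6 to 94.8 CPM in DP and 399 to 897 CPM in DN4, and all 7 tested members were lower. NK and NKT genes summed to 21.6 to 43.4 CPM in DP and 284 to 502 CPM in DN4, with 5 of 6 lower. Gzma, a granzyme, had 14.3 to 27.7 CPM in DP libraries (median 19.99), against 153 to 346 CPM in DN4 libraries (median 201), and Nkg7, a granule protein, 0.278 to 5.46 CPM in DP libraries (median 2.70), against 19.3 to 74.8 CPM in DN4 libraries (median 49.6). Every DN4 library was above every DP library for both sums, and without the 4 named libraries 6 gamma delta and 4 NK genes were still lower. Gzma was then at -3.61. Among the defining genes Il17a was at 0 in all 15 libraries. Il2rb, Blk, Zbtb16, Trdc and the gamma chain genes Tcrg-C2 and Tcrg-C4 are themselves members of these lists, so their falls are part of these sums. The part of such cells in the change of other genes was not tested.

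B cell and dendritic cell genes were high in 2 DN4 libraries. Dendritic cell genes summed to 151 to 226 CPM in DP, and in DN4 to 5132 CPM in replicate 1, 3672 CPM in replicate 7 and 207 to 412 CPM in the other 6. B cell genes summed to 989 to 1399 CPM in DP, to 3002 and 2225 CPM in the same DN4 libraries and to 778 to 1181 CPM in the others. Of these sums Ighm, the heavy chain gene, gave 947 to 1341 CPM in DP and 753 to 1250 CPM in DN4. Cd79a, a signalling chain of the B cell receptor, was at 0.373 to 3.77 CPM in DP, at 488 and 334 CPM in DN4 replicates 1 and 7 and at 0.178 to 22.9 CPM in the other DN4 libraries. Itgax, which defines dendritic cells, was at 0 to 0.442 CPM in all 15. H2-Ab1 changed by -4.05 ± 0.91 with all libraries and by -1.86 without the 4 named ones, and Cd74, the invariant chain, by -6.05 ± 1.65 and -2.48. Cd74, H2-Aa, Cd79a, Igkc and Hbb-bs lost their calls when limma voom weighted the libraries by quality. Red cell genes summed to 23.9 to 75.1 CPM in DP, and in DN4 to 3125 CPM in replicate 7 and 115 to 864 CPM in the other libraries. Of 6 tested members 5 were lower and 1 was higher, which held beyond 2-fold as well. Macrophage and granulocyte genes summed to 23.2 to 89.6 CPM in DP and 21 to 58.2 CPM in DN4. Itgam, an integrin of myeloid cells, had 9.90 to 52.0 CPM in DP libraries (median 17.1), against 0 to 5.17 CPM in DN4 libraries (median 0.0729), and Fcer1g had 0.186 to 2.33 CPM in DP libraries (median 0.353), against 3.60 to 19.6 CPM in DN4 libraries (median 7.198). Of epithelial and stromal genes Foxn1 was at 0 in every library and 3 of 12 passed the filter, with Pecam1 at 1.12 ± 0.22 and Epcam at -1.14 ± 0.39. Epcam lost its call without the 4 named libraries (adjusted p = 0.13), as did Vpreb1 of the surrogate light chain (2.43 ± 0.85, then 1.39 with adjusted p = 0.18). Vpreb1 also lost it without DP replicate 1 (adjusted p = 0.053).

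Mature single positive cells also carry CD4 or CD8, so their genes were counted. They were higher in 5 of 19 cases and lower in 14, and these 2 counts were the same without the 4 named libraries. They summed to 1671 to 2408 CPM in DP. In DN4 the sum was 4862 CPM in replicate 1, 3578 CPM in replicate 7 and 2168 to 2867 CPM in the others, which overlapped DP. H2-K1, an MHC class I heavy chain, had 65.8 to 132 CPM in DP libraries (median 109.8), against 314 to 1129.9 CPM in DN4 libraries (median 423). Its change was -2.30 ± 0.25, and -1.93 without the 4 named libraries. Gimap6, a GTPase of lymphocytes, was higher at 1.27 ± 0.16. Of 8 tested genes of the DN2 and DN3 stages 1 was higher and 4 lower. Kit, the stem cell factor receptor, had 0 to 5.32 CPM in DP libraries (median 1.95), against 3.59 to 38.2 CPM in DN4 libraries (median 12.7), and the higher member was Cd44 with 0.117 to 9.60 CPM in DP libraries (median 6.15), against 0 to 2.89 CPM in DN4 libraries (median 0.668).

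The same comparison in D/AAA thymus used none of these libraries. Of 12464 genes tested there 2141 (17.2%) were higher in DP and 1795 (14.4%) lower, and 452 (3.63%) and 211 (1.69%) beyond 2-fold. Among 11959 genes tested in both genotypes 1881 were called higher in both, 53.7% of the +/D calls and 92.0% of the D/AAA calls. For lower genes 1629 were shared, 51.6% of the +/D and 91.7% of the D/AAA calls. Called +/D genes had the same sign in D/AAA in 97.6% of higher and 96.5% of lower cases. Beyond 2-fold 351 higher genes were shared, 35.9% of the +/D and 86.9% of the D/AAA calls. The 186 lower genes shared beyond 2-fold were 17.6% of the +/D and 90.3% of the D/AAA calls. The interaction of stage and genotype called 0 of 13966 genes (0%, edgeR), of which 1047 had an unadjusted p under 0.05. Limma voom also called 0, with 1243 at an unadjusted p under 0.05, and DESeq2 called 20, with 1204. In D/AAA the change of Cd4 was 6.05 ± 0.44, of Rag1 3.59 ± 0.36, of Bcl2l1 2.54 ± 0.26 and of Myc -2.27 ± 0.49. Some genes called lower in +/D were not called in D/AAA. Among them were Hes1 (0.20 ± 0.93, adjusted p = 0.90) and Notch1 (-0.64 ± 0.38, adjusted p = 0.21). Gzma (-1.26 ± 0.63, adjusted p = 0.14) and Ptcra (-0.15 ± 0.21, adjusted p = 0.62) were others. Myc was uneven among D/AAA DP libraries, at 78.9 ± 80.2 CPM (SD, n = 11), against 383 ± 79.6 CPM in D/AAA DN4 libraries (SD, n = 6). Cdc20 changed by -0.43 ± 0.25 in D/AAA (adjusted p = 0.20). The median of the S phase list was -1.12 in D/AAA and -1.51 in +/D, that of the nucleolar list -1.47 and -1.94, and that of ribosomal protein genes -0.99 and -1.67. The differences between these medians were not tested.

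Set in the course of the stages, with means ± SD on one scale for all sorted libraries of both genotypes, several of these genes had their highest mean before or at DN4. Cd4 averaged 4.12 ± 3.36 CPM in DN1 (n = 6), 6.43 ± 5.07 in DN2 (n = 8), 7.72 ± 4.59 in DN3 (n = 8), 24.3 ± 13.01 in DN4 (n = 8) and 1891 ± 146 in DP (n = 7). Rag1 was at 0.522 ± 0.616, 50.2 ± 27.9, 86.1 ± 60.2, 30.6 ± 11.7 and 456 ± 225 CPM in the same order, with a lower mean in DN4 than in DN3 or DP. Myc stood at 263 ± 43.4, 393 ± 53.6, 515 ± 82.9, 436 ± 57.3 and 22.2 ± 10.3 CPM, highest at DN3 and DN4, where the means lay less than the SD of DN3 apart. Notch1 was at 97.6 ± 26.5, 674 ± 367, 814 ± 210.1, 274 ± 50.2 and 108 ± 45.5 CPM and Ptcra at 2.54 ± 3.83, 327 ± 174, 624 ± 111, 156 ± 25.1 and 102 ± 30.3 CPM, both already lower in DN4 than in DN3. Ccnd2 had a lower mean at each later stage, at 873 ± 166, 312 ± 71.4, 245 ± 48.4, 113 ± 45.5 and 2.23 ± 1.27 CPM. S1pr1 was at 82.0 ± 30.8, 0.978 ± 1.23, 0.0574 ± 0.0867, 30.8 ± 25.9 and 0.0869 ± 0.177 CPM, which left DN1 and DN4 as the stages above 1 CPM on average. These levels are a description, with no test between the earlier stages.

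**Figure D4:**
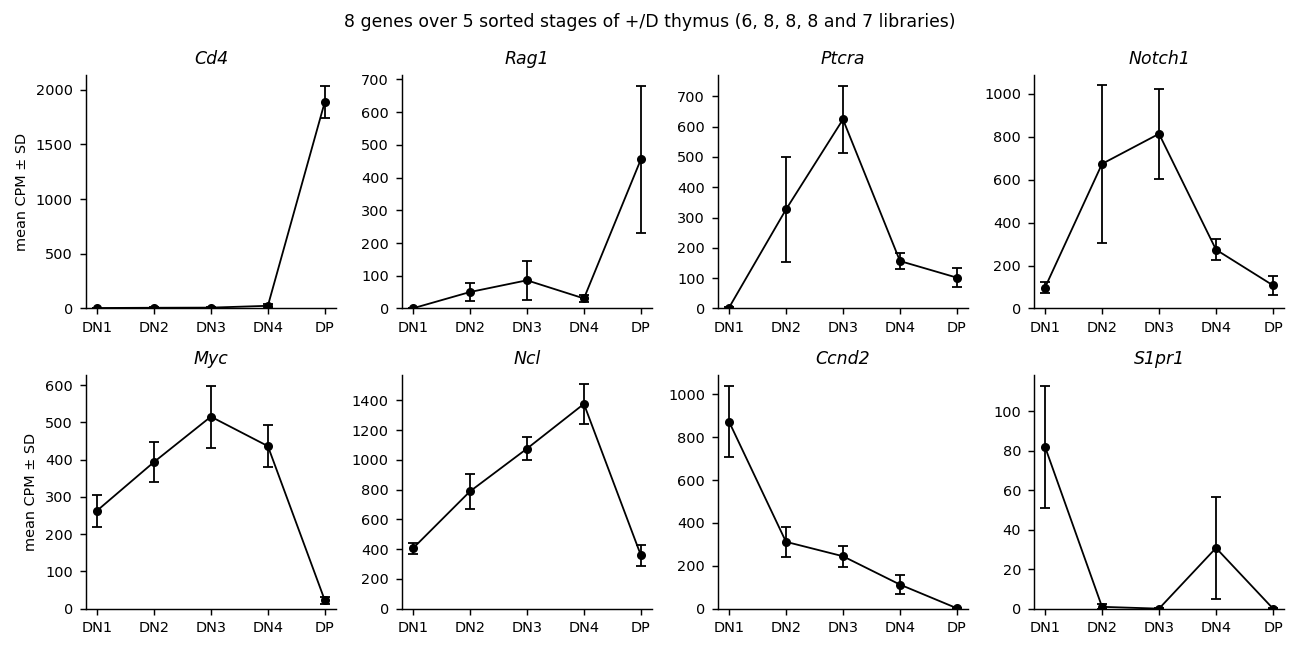
Mean level of 8 genes in CPM with SD as whiskers, on linear axes from 0, in sorted +/D libraries along the 5 stages, from 6 libraries of DN1 to 7 of DP. Cd4 and Rag1 are highest in DP, Myc and Ccnd2 are lowest there, and Ncl, the nucleolin gene, is highest in DN4.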

How the data were processed

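RNA-seq of sorted mouse thymocytes was analysed from the authors' deposited table of expected counts per gene (RSEM), whose values were whole numbers. The submitters' processing notes name FastQC, STAR 2.5.3a, RSEM 1.3.0 and the build GRCm38. Neither the annotation release nor strandedness is given in the sources used here, so genes and overlapping antisense genes may share reads. Names and positions came from GENCODE M21, which matched 50462 of 50686 identifiers. No 2 libraries were identical. The labels do not say whether libraries came from separate mice, and p-values cover only the spread of these samples, which may be technical.

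Genes were kept by filterByExpr, scaled by TMM and compared with edgeR 4.0.16 quasi-likelihood tests (robust, 2-sided) in R 4.3.3, with glmTreat against a log2 change of 1, at a Benjamini-Hochberg adjusted p under 0.05 over all genes tested. Each SE is the absolute log2 change over the root of its F statistic. Single values per library were compared by exact permutation. The script was tested on simulated data. Members, lists and tests were chosen with earlier results of these data known. Named genes were, among protein-coding genes with adjusted p under 0.05, at least 10 CPM in 1 stage and no overlap, the 10 largest changes each way and the 8 largest each way at 200 CPM or more, 4 members of each list by p, and a set always named (Cdc20, Trp53, Myc, Cd4, Rag1 and others). Receptor and immunoglobulin segments, sex-linked markers (Xist, Tsix, the Y), genes of the mitochondrial genome and names that are bare identifiers entered neither of the first 2 parts. Members named as exceptions to a list's direction or beside them, those not called, promoter examples and the genes that define other cells were chosen after their values were seen. A few genes that the rule names are not reported here.

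Alternatives were DESeq2 1.42.0, limma 3.58.1 voom with quality weights, RLE factors, library totals alone, no low-count filter, counts thinned to 5200279, 1 fit of all 37 sorted +/D libraries and each library left out in turn. Leaving out 4 libraries that stand apart, and Trav segments shared with the delta chain, was added after seeing the data. Tables were made with pandas 2.3.3, numpy 2.4.6 and scipy 1.17.1 (Python 3.11.15).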

Additional observations from a re-analysis of the deposited data

Results flagged for a closer look

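In 9 of 100 groups of values tested for an outlying library, 1 library stood apart from the rest of its stage. Some flags may be due to chance, and their rate by chance in these data was not computed. Trp53 was at 372 CPM in DP replicate 1, against 152 to 211 CPM in the other DP libraries. Tcf7 was at 2033 CPM in DP replicate 2, with 3138 to 3946 CPM in the others. Shmt1 was at 2.61 CPM in DP replicate 4 and at 12.5 to 35.03 CPM in the other DP libraries. Fbxl12 was at 36.9 CPM in DN4 replicate 2 and at 45.6 to 54.9 CPM in the other DN4 libraries. The remaining 5 are high values of genes near 0 in that stage. Hba-a2 had 5.99 CPM in DP replicate 6 (0.0992 to 1.12 in the others), S1pr1 had 0.470 CPM in DP replicate 6 (0 to 0.139), and Hbb-bt had 0.273 CPM in DP replicate 3 (0 in the others). Foxb1 had 0.337 CPM in DN4 replicate 2 (0 in the others), and Wdr27 had 0.348 CPM in DN4 replicate 4 (0 to 0.103).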

How the results depend on the processing

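No paired analysis was possible because the labels carry no replicate numbers shared between stages, and the running order of the sample titles was not taken as a pairing. The same replicate number in DP and DN4 comes from the sample order and does not establish a shared mouse. If libraries of both stages did come from the same mice, the tests ignored that pairing. Across the alternatives the number of genes called ran from 6410 to 8152 (main 6748) and beyond 2-fold from 1565 with DESeq2 to 2500 in 1 fit of all sorted +/D libraries (main 2078). Leaving out 1 library at a time gave 6410 to 6841 and 1922 to 2146 calls. Without the 4 libraries that stand apart 6030 of the 6748 calls were kept (89.4%). Scaling by library totals alone moved the median change of all genes to 0.141, and no list median printed here changed sign under either other scaling. Of 161 named genes 157 were tested in all 23 alternatives, Cd79a in 22, Krt8 and Tyrobp in 17 and Fcrl1 in 16. Direction and side of the threshold were kept by 146 in every alternative that tested them, and none reversed. Most named genes were picked for a large change or a small p in these same data. Their stability therefore does not describe the other calls. The 15 that changed were Cdc20, Id3, Lef1, Ptcra, Hist1h2bj, Vpreb1, Ighm, Cebpb, Tyrobp, Epcam, Cd74, H2-Aa, Cd79a, Igkc and Hbb-bs. Ptcra (-0.59, adjusted p = 0.16) and Hist1h2bj were not called in the fit of all sorted +/D libraries. Id3 lost its call without DP replicate 1, 2, 3, 4 or 7 or DN4 replicate 1, 2, 5, 6 or 7, and Cebpb gained one without DN4 replicate 4 (adjusted p = 0.020).

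The Trav share kept its p under 0.05 throughout, with differences of 0.0444 to 0.0496 percentage points when 1 library was left out. The share of Trav counts in the segments nearest to Trac had no stable sign. The difference was -3.29 percentage points for the nearest 42 segments (p = 0.27) and ran from -0.55 to 1.40 when 1 library was left out, with -0.21 without DP replicate 6, -0.0376 without DN4 replicate 4 and -0.55 without DN4 replicate 8. The leading Trbv share differed by -2.11 to -1.36 points when 1 library was left out, with exact permutation p of 0.0060 to 0.061. The interaction called 20 genes with DESeq2 and 0 with edgeR. The cause was not tested.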

Other observations

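Gene families outside the lists, chosen after the values were seen, are given as counts with no test. Mitochondrial ribosomal protein genes (Mrpl and Mrps) were lower in 64 of 78 cases and higher in 0, with a median log2 change of -0.95. Proteasome subunits (Psm) were lower in 34 of 39 cases, RNA polymerase subunits (Polr) in 22 of 28, translation initiation factors (Eif) in 36 of 53 and nucleoporins (Nup) in 13 of 20. Zinc finger genes named Zfp went the other way, with 112 of 303 higher and 16 lower and a median of 0.45. By annotated type, lincRNA genes were higher in 77 of 227 cases and lower in 25 (median 0.64), and antisense genes were higher in 89 of 258 cases and lower in 13 (median 0.73). Processed pseudogenes were lower in 247 of 515 cases (median -1.03), and these share reads with their parent genes. Over all genes 28.7% were higher and 26.3% lower. The part of gene length in these counts was not tested.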
